A study of Mus musculus with 4 samples.

Results

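The perineuronal net is a lattice of extracellular matrix that ensheathes the soma and proximal dendrites of certain neurons, most densely fast-spiking interneurons that contain parvalbumin, a calcium-binding protein encoded by *Pvalb*. Its backbone is hyaluronan, made at the plasma membrane by hyaluronan synthases. Lecticans, chondroitin sulfate proteoglycans with a hyaluronan-binding head, are held on that backbone by link proteins, and tenascin-R crosslinks their other ends. The 8 genes described here were listed by name as net components, out of 21938 protein-coding genes of GENCODE release M21. *Acan*, *Bcan*, *Ncan* and *Vcan* encode the lecticans aggrecan, brevican, neurocan and versican, *Hapln1* and *Hapln4* encode link proteins, *Tnr* encodes tenascin-R, and *Has3* encodes a hyaluronan synthase.

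Accessible chromatin was measured by single-nucleus ATAC-seq (10x Genomics Chromium), in which a transposase cuts open DNA and each cut is assigned to a nucleus, in 4 libraries of Dlx6aCre;Sun1/sfGFP mouse brain at postnatal day 30. Of these, 2 came from cortex and 2 from hippocampus, and both regions carried the same alleles and were sorted for DAPI and GFP. Cre under *Dlx6a* control marks the descendants of *Dlx*-expressing progenitors with a nuclear envelope GFP, which makes the sample one of forebrain GABAergic neurons rather than of one interneuron class. Whether the replicates came from separate animals, and whether animals were pooled, is not given in the sources used here, so p-values measure the spread between these libraries.

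The libraries held 15306 nuclei in all, with 32005984 to 117290059 cut sites in peaks per library. Cortex 2 stood apart with a median of 7352 cut sites per nucleus and 61965 peaks, against a median of 47236 in cortex 1 and 12685.5 and 14917 in hippocampus 1 and 2. Pairs of libraries shared 11 to 47 barcodes. All 8 markers of GABAergic neurons had cut sites in every library, with a summed level of 809 to 1279 CPM (cut sites scaled to counts per 1e6 in peaks). The 6 excitatory markers summed to 40.0 to 68.7 CPM, with *Neurod6* at 0 in all 4. The 5 microglia markers summed to 204 to 265 CPM, the 5 astrocyte markers to 155 to 186 CPM and the 5 endothelium markers to 76.3 to 150 CPM. The 6 markers of the medial ganglionic eminence summed to 334 to 832 CPM. Among them only *Nkx2-1* was at 0, in 3 of 4 libraries. The 10 oligodendrocyte-lineage markers summed to 100 to 131 CPM in cortex and 191 to 222 CPM in hippocampus, with *Sox10* at 0 in both cortical libraries.

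The level of a gene is the number of cut sites in those peaks of a library that touch the gene or 2 kb of upstream sequence, as CPM of the library's cut sites in peaks, and it is a level of open chromatin, not of RNA. All 8 genes passed the filter on low counts in every comparison. No other protein-coding gene shared a peak with any of them. Their neighbourhood is particular, because *Ncan* and *Hapln4* lie beside each other on chromosome 8 (chr8:70093085-70120873 and chr8:70083457-70090862, GRCm38), and *Vcan* and *Hapln1* beside each other on chromosome 13 (chr13:89655312-89742509 and chr13:89539796-89611652). *Tnr* (chr1:159523769-159931729) was the longest of the 8 at 408 kb. *Acan* (chr7:79053483-79115099), *Bcan* (chr3:87987531-88000230) and *Has3* (chr8:106870242-106884566) complete the list.

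Sequences are shown for the promoters of *Acan* and *Bcan* and for 4 intragenic regions, since these carried the differences between classes of nuclei reported below. Promoters are the 250 bases before the RefSeq start (GRCm38.p6), on the strand of the gene. RefSeq windows matched 6 of the 8 genes, all but *Hapln4* and *Has3*. Regions are 300 bases of the plus strand around the middle of the longest stretch that lay in a peak of all 4 libraries. Capitals mark matches on either strand to the GC box GGGCGG, the AP-1 motif TGANTCA, the MEF2 motif (CTA and TAG with 4 bases between them) or AGGTCA, the core of sites for nuclear receptors, and a sequence without capitals held none.

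*Acan* promoter, chr7:79052976-79053225, plus strand:
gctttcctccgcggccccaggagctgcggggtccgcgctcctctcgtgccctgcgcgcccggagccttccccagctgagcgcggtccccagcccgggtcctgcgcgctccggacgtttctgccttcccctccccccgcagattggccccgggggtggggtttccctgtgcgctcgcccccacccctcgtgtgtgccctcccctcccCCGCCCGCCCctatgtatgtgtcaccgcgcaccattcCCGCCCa
*Acan* first region inside the gene, chr7:79060380-79060679, intron:
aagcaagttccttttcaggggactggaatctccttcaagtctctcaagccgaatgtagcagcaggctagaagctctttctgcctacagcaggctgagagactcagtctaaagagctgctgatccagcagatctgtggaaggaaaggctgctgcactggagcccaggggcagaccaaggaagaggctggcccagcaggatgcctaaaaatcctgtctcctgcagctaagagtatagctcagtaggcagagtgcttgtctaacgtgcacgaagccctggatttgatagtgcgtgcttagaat
*Bcan* promoter, chr3:88000357-88000606, minus strand:
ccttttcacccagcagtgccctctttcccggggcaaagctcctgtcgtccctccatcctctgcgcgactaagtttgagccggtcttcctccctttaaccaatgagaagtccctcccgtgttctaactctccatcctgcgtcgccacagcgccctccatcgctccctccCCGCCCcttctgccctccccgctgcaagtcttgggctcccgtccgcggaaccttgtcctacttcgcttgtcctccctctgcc
*Tnr* region 244 kb from the start, chr1:159767255-159767554, intron:
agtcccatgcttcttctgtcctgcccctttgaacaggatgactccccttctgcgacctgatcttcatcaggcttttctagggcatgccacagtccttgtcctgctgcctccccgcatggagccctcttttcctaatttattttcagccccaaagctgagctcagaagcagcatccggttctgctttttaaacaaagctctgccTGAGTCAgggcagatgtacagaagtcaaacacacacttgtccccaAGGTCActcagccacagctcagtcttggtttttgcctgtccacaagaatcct
*Tnr* region 366 kb from the start, chr1:159889402-159889701, coding exon and intron:
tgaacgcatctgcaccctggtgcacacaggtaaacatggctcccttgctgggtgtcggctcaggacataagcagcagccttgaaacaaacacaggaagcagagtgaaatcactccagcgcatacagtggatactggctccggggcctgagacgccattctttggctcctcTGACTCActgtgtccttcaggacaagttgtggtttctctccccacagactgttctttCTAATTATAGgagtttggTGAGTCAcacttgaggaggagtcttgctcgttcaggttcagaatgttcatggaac
*Tnr* region 70.7 kb from the start, chr1:159594182-159594481, intron:
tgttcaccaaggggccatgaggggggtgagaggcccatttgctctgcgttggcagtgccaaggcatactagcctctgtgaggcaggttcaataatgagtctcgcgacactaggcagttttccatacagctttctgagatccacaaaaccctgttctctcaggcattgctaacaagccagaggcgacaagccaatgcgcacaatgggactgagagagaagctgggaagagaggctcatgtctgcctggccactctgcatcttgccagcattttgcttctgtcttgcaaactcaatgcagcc

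The *Acan* promoter window was 74.4% G or C and held 3 GC boxes, of which 2 overlapped, and the *Bcan* window held 1. A GC box was present in 32.9% of all 27025 RefSeq windows of that length. The *Tnr* region at 244 kb held 1 AP-1 match and 1 AGGTCA, and that at 366 kb held 2 AP-1 matches and 1 MEF2 match. Among 45812 windows cut the same way from all common regions (regions with a peak in each of the 4 libraries), 13.2% held an AP-1 match, 4.82% a MEF2 match and 12.1% AGGTCA. Of 38 such windows in the 8 genes, 5 held an AP-1 match and 5 a MEF2 match. The other *Acan* region, 37.7 kb from the start, had no stretch open in all 4 libraries and gave no window.

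Over all nuclei of a library, *Tnr* had the highest level, at 318 and 248 CPM in cortex 1 and 2 and 333 and 284 CPM in hippocampus 1 and 2. Per kb of gene window, *Tnr* was at 0.721 ± 0.093 CPM (SD, n = 4 libraries) and *Hapln4*, the shortest gene, led with 4.61 ± 1.11. *Bcan* followed at 3.07 ± 0.89, *Ncan* at 2.47 ± 0.74, *Has3* at 1.71 ± 0.44, *Hapln1* at 0.678 ± 0.226, *Acan* at 0.504 ± 0.170 and *Vcan* at 0.364 ± 0.168. The compact genes *Hapln4*, *Bcan*, *Ncan* and *Has3* were therefore above the 4 long ones on this scale, and the ranges over libraries of neighbours in the order overlapped, except between *Has3* (1.31 to 2.31) and *Tnr* (0.604 to 0.812). Per kb of covered peak the 8 genes lay close together, between 12.3 and 14.4 CPM on average.

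**Figure D1:**
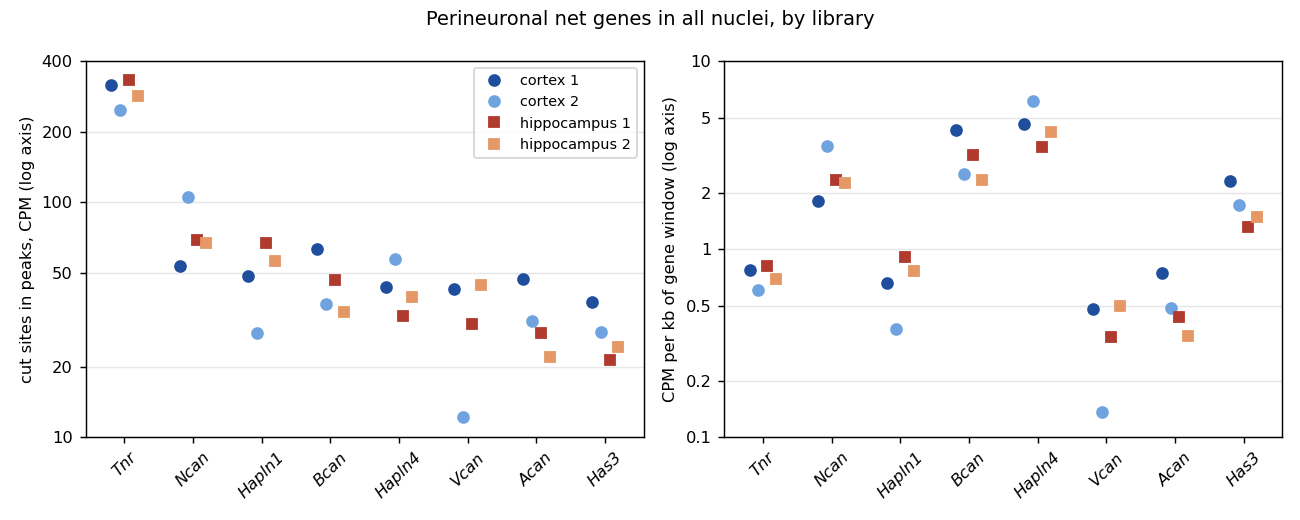
Level of each perineuronal net gene in all nuclei of the 4 libraries, as CPM (left, log axis) and as CPM per kb of gene window (right, log axis), 1 point per library. *Tnr* is highest on the left at 248 to 333 CPM, the 4 compact genes lie above the 4 long ones on the right, and *Vcan* in cortex 2 is lowest at 12.2 CPM.

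The first comparison asked whether net genes were more open in cortex or hippocampus. None of the 8 passed the test, beside 20 of 16326 genes (0.123%), 12 higher and 8 lower in hippocampus. DESeq2 called none of the 8 either, with 120 genes higher and 33 lower. *Acan* was at 47.3 and 31.1 CPM in cortex and 27.9 and 22.1 CPM in hippocampus. *Has3* was at 37.7 and 28.2 CPM in cortex and 21.3 and 24.2 CPM in hippocampus. The fitted log2 differences (hippocampus over cortex) were -0.65 ± 0.35 for *Acan* and -0.53 ± 0.35 for *Has3* (SE, edgeR adjusted p = 0.99997 for each). Per kb of covered peak, *Acan* was at 7.43 and 23.3 CPM in cortex and 7.60 and 11.6 CPM in hippocampus. *Has3* was at 11.6 and 21.7 CPM in cortex and 7.83 and 10.4 CPM in hippocampus on that scale.

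*Hapln1* lay the other way, at 48.8 and 27.8 CPM in cortex and 67.3 and 56.5 CPM in hippocampus, with a log2 difference of 0.69 ± 0.34, the single member with an unadjusted edgeR p under 0.05 (0.0456), beside 501 of all genes (3.07%). That direction turned to -0.37 with the bp covered by peaks as an offset and to -0.38 with peaks near the start. The median over all genes tested moved too, from -0.10 to -0.54 with the offset and to -0.21 with peaks near the start. With the offset *Hapln1* thus lay above the median gene. The groups overlapped for *Bcan* (63.2 and 36.9 against 46.5 and 34.1 CPM), *Ncan* (53.6 and 105 against 69.2 and 66.9 CPM) and *Tnr*. *Hapln4* was at 43.5 and 57.5 CPM in cortex and 32.9 and 39.6 CPM in hippocampus. Per kb of covered peak it was at 12.2 and 23.4 CPM in cortex and 8.80 and 13.1 CPM in hippocampus. How many of all genes have groups that do not overlap was not counted. *Vcan* was at 42.8 and 12.2 CPM in cortex and 30.4 and 44.7 CPM in hippocampus, so that its spread within cortex exceeded the difference between regions. Its covered length was 642 bp in cortex 2 against 3368 to 4745 bp elsewhere. Without cortex 1, *Vcan* was called higher in hippocampus (1.63, edgeR adjusted p = 0.0378), in a fit that called 725 of 16810 genes (4.31%), 706 of them higher.

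In data simulated for this comparison over 16326 genes, 0 of 100 genes changed 4-fold were recovered. Every simulated gene had the common dispersion of 0.401, while the fitted SE of the 8 genes was 0.27 to 0.35. The simulation therefore does not say which differences in these genes would be called, and an absent call does not show that levels are alike. Over all nuclei, a different share of nuclei of one class and a different level per nucleus cannot be told apart. Of the 39 common regions in the 8 genes 0 passed, as did 0 of all 46698 common regions (0%), with 3432 at an unadjusted edgeR p under 0.05 and 352 called by DESeq2. The 4 member regions at an unadjusted p under 0.05 all lay in *Tnr*.

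The second comparison set nuclei with at least 1 cut site in the *Pvalb* window (Pvalb-gated) against the other nuclei of the same library. *Acan*, *Bcan*, *Has3* and *Tnr* rose in Pvalb-gated nuclei, in all 4 libraries each. *Ncan*, *Vcan*, *Hapln1* and *Hapln4* did not pass the test. The 4 of 8 compare with 2572 of 17056 genes called in all (15.1%), 1153 higher (6.76%) and 1419 lower (8.32%). With TMM scaling the split was 1402 higher and 934 lower, and with DESeq2 1107 and 566.

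The nuclei are not pure classes. A nucleus without a cut site may lack only depth, and the median of gated against other nuclei was 54047 against 39573 cut sites in cortex 1, 9399 against 7063 in cortex 2, 16612 against 11865 in hippocampus 1 and 17764 against 14249 in hippocampus 2. The gate held 58.1% of the nuclei of cortex 1 and 12.4% to 16.6% of those of the other libraries. Peaks covered 9624 bp of the *Pvalb* window in cortex 1, 1237 bp in cortex 2, and 4758 and 1877 bp in hippocampus 1 and 2. The gate was therefore not alike in the 4 libraries. Summed over 6 markers each, with the gate genes left out, medial ganglionic eminence markers were 1.10 to 1.25 times as high in gated as in other nuclei and caudal markers 0.648 to 0.903 times. The oligodendrocyte-lineage list was at 0.815 to 0.983 times, the GABAergic list at 0.985 to 1.03 times, and the excitatory, astrocyte, microglia and endothelium lists at 0.909 to 1.11 times.

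*Acan*, the lectican most closely tied to nets, was at 57.2, 43.9, 34.5 and 32.0 CPM in gated nuclei of cortex 1, cortex 2, hippocampus 1 and hippocampus 2, against 27.3, 28.7, 26.0 and 19.6 CPM in other nuclei. Every gated value lay above every other value, and how many of all genes separate in this way was not counted. The fit gave 1.65-fold (log2 0.72 ± 0.08, edgeR adjusted p = 7.37e-06). The difference ranged from 0.41 in hippocampus 1 to 1.07 in cortex 1 on the log2 scale. With marker counts thinned to 3000 cut sites per nucleus before gating, and shallower nuclei left out (0, 414, 381 and 67 in cortex 1, cortex 2, hippocampus 1 and hippocampus 2), *Acan* still rose by 0.49 (edgeR adjusted p = 3.26e-06). The thinned gate kept 367, 274, 365 and 184 nuclei in that order, of 1369, 520, 923 and 513 gated before. Gated nuclei of enough depth that lost their *Pvalb* counts were set among the other nuclei. The part of this in smaller values or lost calls was not tested.

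*Bcan* was at 70.9, 45.2, 55.3 and 48.6 CPM in gated nuclei against 47.6, 35.3, 44.0 and 30.6 CPM in the others. The rise of 1.40-fold (log2 0.49 ± 0.06, edgeR adjusted p = 3.00e-07) was within each library, since the 2 sets of values overlapped between libraries. *Has3* was at 41.0, 33.2, 27.5 and 30.9 CPM against 31.0, 27.2, 19.6 and 22.5 CPM, a rise of 1.33-fold (log2 0.42 ± 0.07, edgeR adjusted p = 3.48e-05). *Tnr* was at 339, 263, 360 and 312 CPM against 275, 245, 326 and 277 CPM, a smaller rise of 1.14-fold (log2 0.19 ± 0.04, edgeR adjusted p = 0.000265). *Tnr* was the single one of these 4 to lose its call in an alternative, with peaks within 2 kb of the start (0.13, edgeR adjusted p = 0.267).

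Neurocan is the lectican most abundant in the young brain, and *Ncan* was at 52.2, 94.2, 73.4 and 67.5 CPM in gated nuclei against 56.5, 107, 68.0 and 66.7 CPM, lower in both cortical libraries and higher in both hippocampal ones (-0.04 ± 0.05, edgeR adjusted p = 0.651). *Vcan* was lower in gated nuclei of all 4 libraries, at 42.6, 9.51, 27.2 and 41.0 CPM against 43.2, 12.7, 31.3 and 45.6 CPM, but did not pass (-0.14 ± 0.07, edgeR adjusted p = 0.161). Both were called lower when peaks within 2 kb of the start were counted (-0.16 and -0.19, edgeR adjusted p = 0.0337 and 0.0409). That fit called 2221 of 15173 genes, 1532 of them lower. *Vcan* was also called lower with common regions alone (-0.19, edgeR adjusted p = 0.0365), where 2863 of 14645 genes were called, 1600 of them lower.

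The link proteins differed little at the gene level. *Hapln1* was at 49.7, 32.8, 61.9 and 58.9 CPM in gated nuclei against 47.0, 26.9, 68.8 and 55.9 CPM (0.04 ± 0.06, edgeR adjusted p = 0.714). *Hapln4* was at 45.4, 55.9, 35.9 and 44.1 CPM against 39.7, 57.8, 32.0 and 38.5 CPM (0.14 ± 0.06, edgeR adjusted p = 0.112). *Hapln1* was called higher with common regions alone (0.22, edgeR adjusted p = 0.00858), where 1263 of 14645 genes were called higher. *Hapln4* was called higher with peaks near the start (0.33, edgeR adjusted p = 0.000144), where 689 of 15173 genes were. Without cortex 2 *Hapln4* was called too (0.18, edgeR adjusted p = 0.0373), beside 1105 of 17064 genes called higher. The median of the 8 log2 differences was 0.16, against -0.02 over all genes tested.

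**Figure D2:**
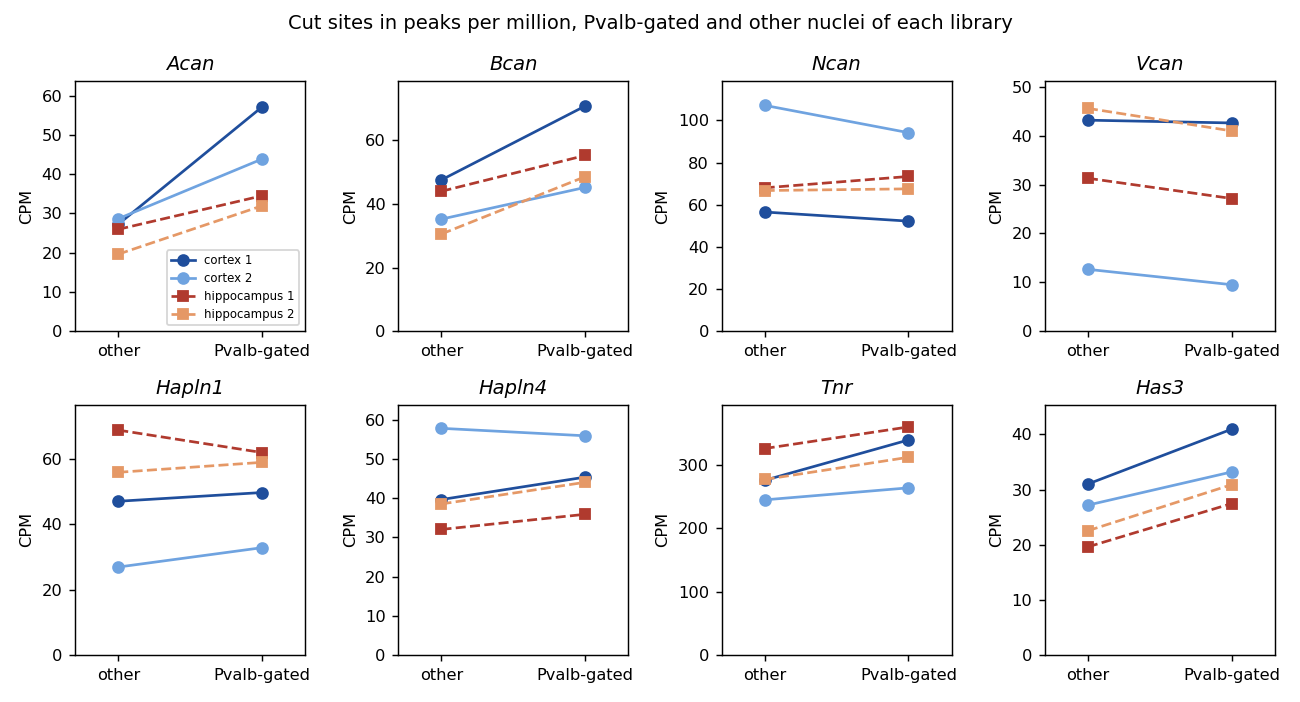
Level (CPM) of the 8 genes in other nuclei and in Pvalb-gated nuclei, with a line joining the 2 values of each library. The lines of *Acan*, *Bcan*, *Tnr* and *Has3* rise in all 4 libraries, those of *Vcan* fall in all 4, and those of *Ncan*, *Hapln1* and *Hapln4* go both ways.

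Whether the Pvalb gate difference itself differed between brain regions was tested as an interaction. None of the 8 passed, by edgeR or by DESeq2, against 48 of 17056 genes (0.281%). *Acan* had the smallest p among members, with a gate difference smaller in hippocampus by a log2 of -0.36 ± 0.13 (edgeR adjusted p = 0.328), and passed when cortex 2 was left out (-0.53, edgeR adjusted p = 0.0104), where 285 of 17095 genes passed (1.67%). Over 8 alternative settings the *Acan* value ranged from -0.53 to -0.07, and it passed in 1 of them. Its log2 gate differences were 1.07 and 0.61 in cortex 1 and 2, and 0.41 and 0.70 in hippocampus 1 and 2. With the thinned gate they were 0.45 and 0.67 in cortex and 0.36 and 0.59 in hippocampus. For *Ncan* the interaction value was 0.21 ± 0.09 (edgeR adjusted p = 0.562). *Acan* and *Ncan* had an unadjusted p under 0.05 in the main fit, as did 1244 of all genes (7.29%). Within Pvalb-gated nuclei alone, hippocampus against cortex gave -0.61 ± 0.35 for *Acan* and 0.54 ± 0.35 for *Hapln1*. No member passed there, by edgeR or DESeq2, against 9 of 16201 genes (0.0556%). Simulated data recovered 2 of 100 genes changed 4-fold, with the common dispersion (0.2165) given to every gene rather than that of the members. *Vcan* alone was called when cortex 1 was left out, where 554 of 16571 genes passed (3.34%).

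The gated nuclei were next compared by region of the genome. Of 39 common regions in the 8 genes, 13 rose and 4 fell in Pvalb-gated nuclei and 22 did not pass. Over all 46698 common regions 11123 passed (23.8%), 5941 of them higher (12.7%) and 5182 lower (11.1%).

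In *Acan* 2 of 4 regions rose. The region over the start (chr7:79052078-79054502) was at 28.0, 7.98, 6.46 and 11.3 CPM of common-region cut sites in gated nuclei of cortex 1, cortex 2, hippocampus 1 and hippocampus 2, against 11.3, 4.95, 4.54 and 5.22 CPM in other nuclei, a rise of 1.95-fold (log2 0.96 ± 0.15, edgeR adjusted p = 4.10e-05). This is the region of the GC-rich promoter shown above, which an antisense transcript also overlaps, and cut sites carry no strand. The region 6.91 kb from the start (chr7:79059970-79060818, intron), whose sequence is also shown, was at 15.3, 17.6, 10.7 and 8.22 CPM against 4.20, 7.61, 6.40 and 4.26 CPM, and rose 2.33-fold (1.22 ± 0.17, edgeR adjusted p = 1.09e-05). All 4 gated values of the intronic region lay above all 4 others, which also held for a *Tnr* region 250 kb from its start. How many of all common regions separate in this way was not counted. The gated values of the *Acan* start region overlapped the others between libraries but were higher within each of the 4. Peaks covered 2425 bp of the start region in cortex 1, 276 bp in cortex 2, and 574 and 603 bp in hippocampus 1 and 2. With the thinned gate the intronic region kept its call (0.85, edgeR adjusted p = 0.000749) and the start region lost it (0.33, edgeR adjusted p = 0.284). The regions at 27.5 and 37.7 kb did not pass (0.13 ± 0.13 and 0.48 ± 0.18, edgeR adjusted p = 0.515 and 0.0539).

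*Bcan* had 2 common regions. That over the start (chr3:87997170-88001154) was at 63.2, 48.9, 52.6 and 54.4 CPM in gated nuclei against 37.4, 38.1, 36.2 and 35.0 CPM in the others, with no overlap, and rose 1.51-fold (0.60 ± 0.06, edgeR adjusted p = 6.76e-07). The region at the other end of the gene had a difference of -0.00 ± 0.12 (edgeR adjusted p = 0.990). The single common region of *Has3*, over its start (chr8:106869924-106873175), was at 52.0, 35.9, 38.5 and 36.8 CPM against 39.2, 29.4, 27.0 and 27.0 CPM (0.42 ± 0.07, edgeR adjusted p = 5.92e-05). Both start regions kept their calls with the thinned gate.

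*Tnr* held 23 of the 39 regions, of which 7 rose, 3 fell and 13 did not pass. The region over its start was among the latter (0.12 ± 0.08, edgeR adjusted p = 0.261). The largest rise among the 39 regions was 244 kb downstream, although with the thinned gate the intronic *Acan* region had the larger value (0.85 against 0.76). The region (chr1:159766978-159767905, intron) was at 15.1, 13.9, 13.8 and 7.21 CPM in gated nuclei against 4.33, 8.05, 5.55 and 2.80 CPM, 2.54-fold (1.35 ± 0.16, edgeR adjusted p = 1.93e-06). Sequence from its middle, with the AP-1 match and AGGTCA, is shown above. The region at 366 kb (chr1:159888604-159890063), which holds the 2 AP-1 matches, was at 20.1, 18.3, 18.8 and 7.84 CPM against 13.5, 12.4, 10.7 and 4.57 CPM (0.67 ± 0.12, edgeR adjusted p = 0.000229). These 2 kept their calls with the thinned gate.

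The opposite was seen 70.7 kb from the *Tnr* start (chr1:159593897-159595016, intron). Gated nuclei were at 3.48, 2.10, 10.8 and 5.19 CPM against 8.57, 6.36, 15.3 and 9.76 CPM, lower in every library and 0.505-fold by the fit (-0.98 ± 0.17, edgeR adjusted p = 0.000104). With the thinned gate it was at -0.58 (edgeR adjusted p = 0.0813). The next region downstream, at 73.1 kb, rose by 0.56 ± 0.16 (edgeR adjusted p = 0.00946), that at 64.7 kb did not pass (0.31 ± 0.13, edgeR adjusted p = 0.0910), and that at 60.2 kb rose by 0.77 ± 0.16 (edgeR adjusted p = 0.000895). Neither rise passed with the thinned gate (edgeR adjusted p = 0.192 and 0.190). The sum over the gene, 0.19, thus joined regions that rose and regions that fell.

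**Figure D3:**
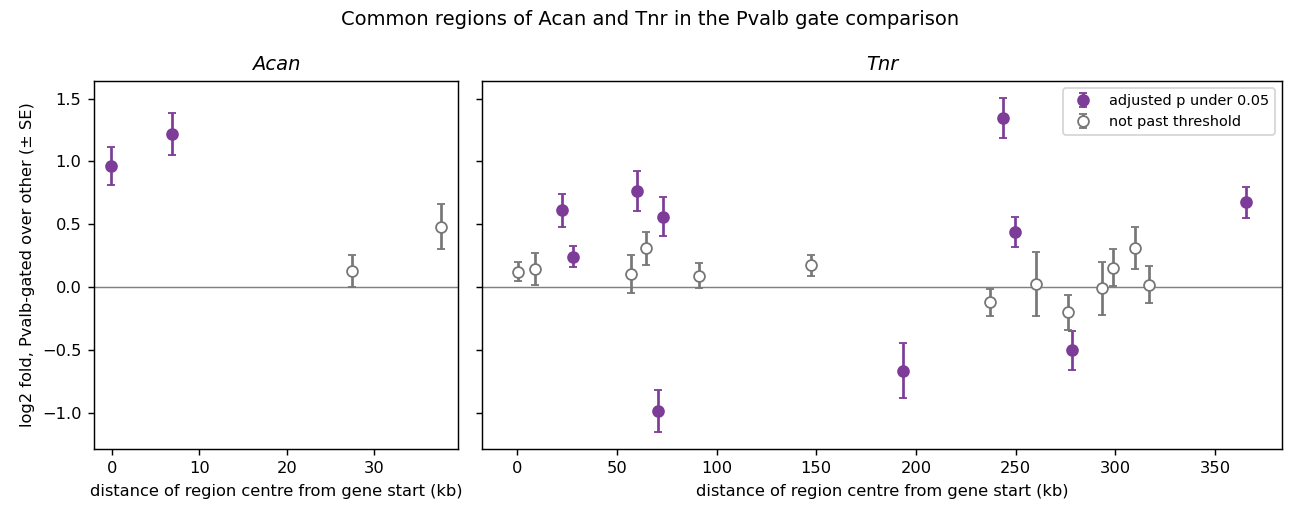
Log2 difference between Pvalb-gated and other nuclei (± SE) of each common region of *Acan* (4) and *Tnr* (23), against the distance of its centre from the gene start in kb, with filled points past an adjusted p of 0.05. In *Acan* the region at the start and the one at 6.91 kb are filled, and in *Tnr* filled points lie on both sides of 0, from -0.98 at 70.7 kb to 1.35 at 244 kb.

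The other members showed single regions. In *Hapln1* the start region gave 0.02 ± 0.11 (edgeR adjusted p = 0.922) and a region 44.7 kb inside (chr13:89583424-89585639, exon and intron) rose, at 27.2, 18.9, 34.3 and 35.8 CPM against 17.9, 15.7, 30.3 and 28.7 CPM (0.36 ± 0.09, edgeR adjusted p = 0.00411). The call was lost without cortex 1 (0.25, edgeR adjusted p = 0.0913) and with the thinned gate. In *Hapln4* the start region (chr8:70083026-70085165) rose in 3 of 4 libraries, at 37.3, 41.4, 32.7 and 34.5 CPM against 26.9, 41.7, 25.1 and 26.7 CPM (0.32 ± 0.08, edgeR adjusted p = 0.00330), and lost its call with the thinned gate (0.19, edgeR adjusted p = 0.303).

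In *Vcan* the region 2.17 kb inside the gene (chr13:89739176-89741504) fell, at 29.6, 6.51, 25.7 and 29.9 CPM against 35.2, 10.9, 29.2 and 37.1 CPM (-0.30 ± 0.09, edgeR adjusted p = 0.0145). It was past the threshold with the thinned gate (-0.41, edgeR adjusted p = 0.0216) but not without hippocampus 2 (-0.30, edgeR adjusted p = 0.0672). The *Vcan* start region gave 0.07 ± 0.14 (edgeR adjusted p = 0.780). The start region of *Ncan* (chr8:70118587-70121188), at 37.4, 54.6, 45.3 and 46.1 CPM against 43.6, 72.7, 43.8 and 49.8 CPM, did not pass (-0.17 ± 0.06, edgeR adjusted p = 0.0527), and neither did its other 2 regions. Without the oligodendrocyte-marker-high nuclei described below it passed (edgeR adjusted p = 0.0306).

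To ask whether the differences set Pvalb-gated nuclei apart from other interneuron classes, nuclei with cut sites in exactly 1 of *Pvalb*, *Sst*, *Lamp5* and *Vip* were compared. *Sst* encodes somatostatin and marks the other large class from the medial ganglionic eminence. In cortex, *Lamp5* and *Vip* mark classes largely of caudal origin. Lamp5-only nuclei numbered 164 and 166 in cortex and 665 and 372 in hippocampus. *Acan* was higher in Pvalb-only than in Sst-only nuclei by 1.95-fold (0.97 ± 0.14, edgeR adjusted p = 8.44e-05) and in 4 of 4 libraries, from 0.55 in hippocampus 1 to 1.49 in cortex 1. *Bcan* rose too, by 1.48-fold (0.57 ± 0.13, edgeR adjusted p = 0.0118), but lost its call without cortex 1 (0.30, edgeR adjusted p = 0.300), without cortex 2 (0.62, edgeR adjusted p = 0.0608), without hippocampus 2 (0.57, edgeR adjusted p = 0.0654) and with the thinned gate.

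*Has3* narrowly missed the threshold against Sst-only nuclei (0.41 ± 0.13, edgeR adjusted p = 0.0535) and was past it without cortex 1 (0.59, edgeR adjusted p = 0.0496). *Hapln1* gave 0.34 ± 0.14, *Hapln4* 0.22 ± 0.11, *Tnr* 0.13 ± 0.06, *Vcan* 0.02 ± 0.13 and *Ncan* -0.03 ± 0.09, none past the threshold. *Hapln1* was called without hippocampus 1 (0.62, edgeR adjusted p = 0.00281), the one library in which it was lower in Pvalb-only nuclei (-0.28). The 2 members called, both higher, compare with 1181 of 16576 genes (7.12%), or 3.85% of genes higher.

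Against Lamp5-only nuclei 3 members rose in Pvalb-only nuclei, *Acan* by 0.81 ± 0.11, *Has3* by 0.71 ± 0.12 and *Bcan* by 0.55 ± 0.09 (edgeR adjusted p = 4.14e-05, 0.000241 and 0.000294), each in 4 of 4 libraries, with 1181 of 16680 genes called (7.08%) and 3.67% higher. *Hapln1* was lower in 3 of 4 libraries, from -0.34 to -0.65, and higher by 0.87 in cortex 2 (-0.36 ± 0.11, edgeR adjusted p = 0.0523). It was called without cortex 2 (-0.47, edgeR adjusted p = 0.000501).

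Hippocampal libraries held no peak in the *Vip* window, so Vip-only nuclei came from cortex alone, 61 in cortex 1 and 47 in cortex 2. There *Acan* was called (1.00 ± 0.29, edgeR adjusted p = 0.0349), and *Has3* (0.93 ± 0.34), *Bcan* (0.66 ± 0.26) and *Tnr* (0.44 ± 0.14) were not, beside 548 of 15492 genes (3.54%). Of these, 309 were higher (1.99% of genes tested) and 239 lower, and with DESeq2 157 and 217. The *Acan* call was lost with DESeq2 (0.98, adjusted p = 0.116), with the thinned gate (1.66, edgeR adjusted p = 0.0708) and with a gate of 2 cut sites (0.93, edgeR adjusted p = 0.9998), where 5 Vip-only nuclei remained in cortex 2. *Acan* was the single member past the threshold against all 3 other classes.

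**Figure D4:**
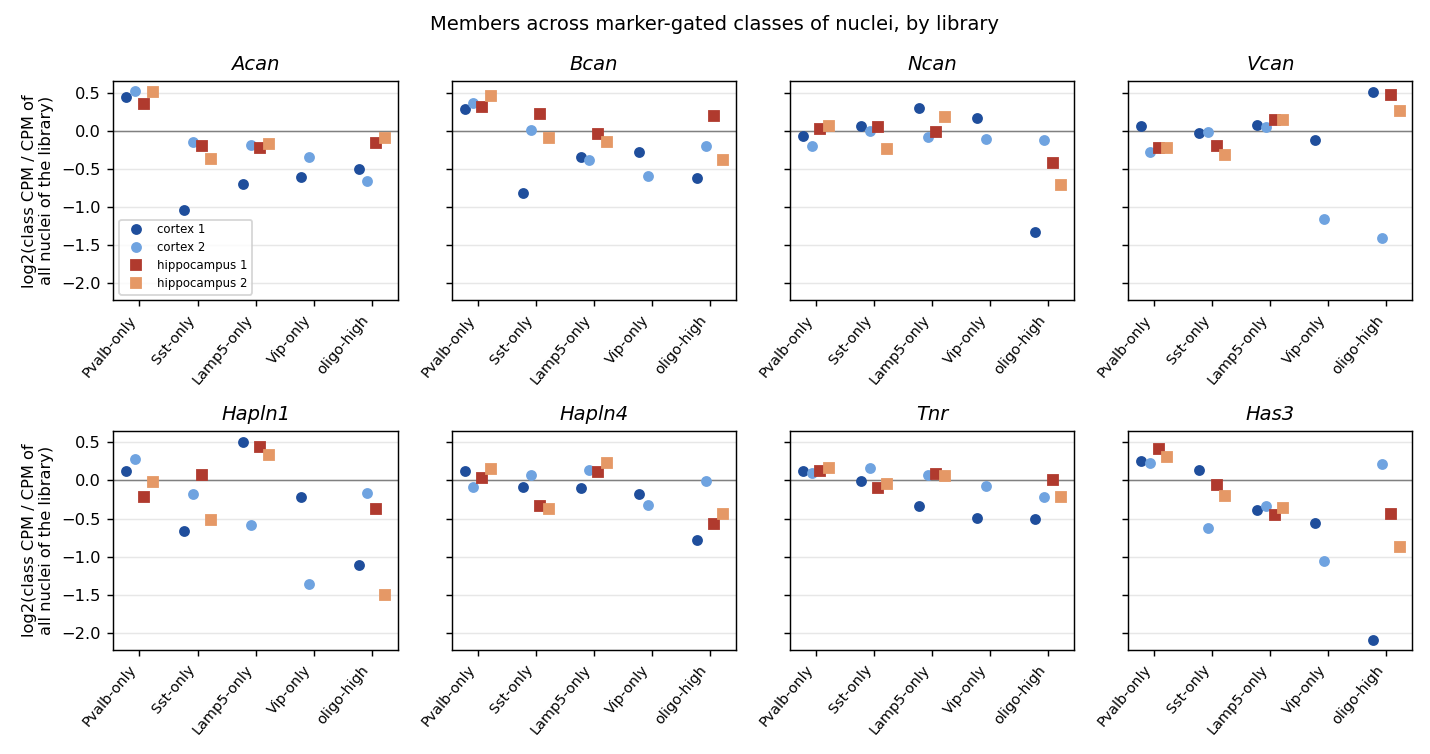
Log2 ratio of each gene's CPM in a class of nuclei to its CPM in all nuclei of the same library, for Pvalb-only, Sst-only, Lamp5-only, Vip-only and oligodendrocyte-marker-high (oligo-high) nuclei, 1 point per library. *Acan* lies above 0 in Pvalb-only nuclei of all 4 libraries and below 0 in the other classes, while *Hapln1* is above 0 in Lamp5-only nuclei of 3 libraries.

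Over 18 sums (these classes in each library, with levels centred within the library) the protein-coding gene whose log2 level was most like that of *Acan* was *Bcan*, another of the 8, with Pearson's r = 0.816. It was followed by *Tll1* (0.792), *Inpp5j* (0.784), *Cps1* (0.765) and *Rab12* (0.756). For *Hapln1* the nearest were *Bmp6* (0.919), *Lin7a* (0.912), *Cers3* (0.886), *Slc6a11* (0.884) and *Ephb3* (0.882). *Acan* and *Hapln1* themselves had r = 0.271, and *Acan* and *Ncan* r = -0.014. The sums share libraries and depth, and these values are descriptions.

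Net genes are also used by glia, and *Bcan*, *Vcan* and *Tnr* are known from oligodendrocyte-lineage cells. Nuclei high in oligodendrocyte-lineage markers and low in GABAergic ones made up 2.89% to 9.36% of a library. They were shallower than the other nuclei, with a median of 22391.5 against 47958 cut sites in cortex 1 and 6528.5 against 7424 in cortex 2. In hippocampus 1 and 2 the medians were 4080 against 13334 and 9085 against 15726. The part of depth in passing these marker limits was not tested. In cortex 2, 5 of the 10 lineage markers had no cut site in all nuclei, so that class rests on few genes there. None of the 8 passed between these and other nuclei, beside 843 of 16791 genes called (5.02%), although 4 passed with DESeq2. Of the genes called, 623 were higher and 220 lower, against 51 and 8 with TMM scaling and 2943 and 3206 with DESeq2. Values were -0.80 ± 0.25 for *Hapln1*, -0.74 ± 0.35 for *Has3*, -0.62 ± 0.21 for *Ncan*, -0.45 ± 0.18 for *Hapln4*, -0.36 ± 0.19 for *Acan*, -0.26 ± 0.18 for *Bcan*, -0.24 ± 0.16 for *Tnr* and 0.16 ± 0.28 for *Vcan*. The median over all genes was 0.05 here and -0.05 with TMM scaling. *Hapln1*, *Ncan* and *Hapln4* had an unadjusted p under 0.05, as did 6207 of all genes (37%). Without cortex 2 these 3 and *Has3* were called lower, in a fit that called 6590 of 16876 genes (39%), 2928 of them lower (-0.98, -0.79, -0.60 and -1.08, edgeR adjusted p = 0.00916, 0.0106, 0.0295 and 0.0221). Leaving these nuclei out, *Acan*, *Bcan*, *Has3* and *Tnr* rose in the Pvalb gate as before, by 0.72, 0.49, 0.41 and 0.18.

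The wider net pathway, 49 other genes for chondroitin sulfate synthesis and sulfation, hyaluronan turnover, proteases and receptors, was read by counts. In the Pvalb gate all 49 were tested, 5 rose and 9 fell, 28.6% against 15.1% of all genes, with a median log2 difference of -0.05 against -0.02 over all genes. The rises with the smallest p were *Rtn4rl1*, a receptor of chondroitin sulfate proteoglycans (0.37 ± 0.04), *Cemip*, which acts in hyaluronan breakdown (0.35 ± 0.05), and *Crtac1*, a matrix protein (0.16 ± 0.04). The falls were *Timp2*, an inhibitor of metalloproteinases (-0.33 ± 0.05), *Ust*, a uronyl sulfotransferase (-0.26 ± 0.05), and *Adamts4*, an aggrecan-cleaving protease (-0.33 ± 0.06). *Rtn4rl1* was at 165, 116, 117 and 144 CPM in gated nuclei against 119, 102, 94.6 and 106 CPM, and *Timp2* at 75.4, 87.4, 85.3 and 101 CPM against 108, 103, 100 and 123 CPM. Both moved one way in all 4 libraries. Of the 9 that fell, *Adamts4* and *Mmp2* were higher in oligodendrocyte-marker-high nuclei, by 1.79 ± 0.30 and 2.57 ± 0.46. So was *Cspg4*, by 1.91 ± 0.18, but it is among the 10 lineage markers that define those nuclei. The oligodendrocyte-lineage list was at 0.815 to 0.983 times in gated nuclei. Without those nuclei 6 pathway genes rose and 7 fell in the gate. *Adamts4* fell by less there (-0.22 ± 0.06, edgeR adjusted p = 0.0164), and *Mmp2* no longer passed (-0.35 ± 0.13, edgeR adjusted p = 0.0705). *Cspg4* did not pass there either (-0.10 ± 0.06, edgeR adjusted p = 0.338). Since *Cspg4* helped to choose the nuclei left out, its lost call is no result, and it is part of the change from 9 falls to 7.

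Against Sst-only nuclei 5 of 47 pathway genes rose and 4 fell (19.1%, with 7.12% of all genes), led by *Adamts15*, a proteoglycan-cleaving protease (0.87 ± 0.11), *Crtac1* (0.39 ± 0.06) and *Chst3*, the chondroitin 6-sulfotransferase (0.61 ± 0.11), and by *Chst15*, another chondroitin sulfotransferase (-0.49 ± 0.08), *Sema3a*, a guidance cue bound by nets (-0.42 ± 0.11), and *Timp2* (-0.31 ± 0.08). Against Lamp5-only nuclei 7 of 48 rose and 4 fell (22.9%, with 7.08% of all genes), led by *Rtn4rl1* (0.42 ± 0.06), *Cemip* (0.42 ± 0.08) and *Xylt1*, which starts the sugar chain (0.31 ± 0.06), and by *Ust* (-0.48 ± 0.09), *Timp2* (-0.37 ± 0.07) and *Chsy3*, a chondroitin synthase (-0.29 ± 0.07). Against Vip-only nuclei 9 of 46 were called (19.6%, with 3.54% of all genes). Of these 5 rose, led by *Xylt1* (0.95 ± 0.18), *Adamts15* (1.47 ± 0.31) and *Adamts1* (1.45 ± 0.31), and 4 fell, led by *Ust* (-1.11 ± 0.18), *Chsy3* (-0.71 ± 0.19) and *Tnc*, which encodes tenascin-C (-1.37 ± 0.38).

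None of the pathway genes tested passed between hippocampus and cortex, over all nuclei (47 genes) or within Pvalb-gated nuclei (47 genes), or in the interaction (49 genes). In oligodendrocyte-marker-high nuclei 5 of 49 rose and none fell (10.2%, with 5.02% of all genes, of which far fewer passed with TMM and far more with DESeq2). The 5 include *Cspg4*, the NG2 proteoglycan of oligodendrocyte precursors (1.91 ± 0.18). It is among the 10 lineage markers that define these nuclei, so its rise was set by the choice of nuclei and is no result. The rises also included *Hapln2*, the link protein of nodes of Ranvier (2.85 ± 0.40), and *Chst3* (1.77 ± 0.30). *Hapln2* and *Hapln3*, the link protein genes beside *Bcan* and *Acan*, did not pass in the Pvalb gate (-0.30 ± 0.12 and 0.04 ± 0.14, edgeR adjusted p = 0.0841 and 0.886), unlike those 2 lecticans. Both were low over all nuclei, however. *Hapln2* was at 6.94 to 16.8 CPM, and *Hapln3* at 0 CPM in cortex 2 and at most 15.4 CPM elsewhere. *Bcan* was at 34.1 to 63.2 CPM and *Acan* at 22.1 to 47.3 CPM.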

How the data were processed

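The deposited matrices held raw counts of cut sites per peak and nucleus, with peaks called by the authors in each library separately and no normalization applied by the authors. Per the labels, Cell Ranger ATAC 1.2.0 and GRCm38 (mm10) were named in the submitters' processing notes; peak settings are not given in the sources used here. The deposited motif count matrices were not used. No peak ran past a GRCm38 chromosome end, and 48.6% to 58.1% of gene starts lay in a peak, against 2.45% to 6.67% after a shift of 100 kb.

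Cut sites were summed per gene window and per common region (peaks merged at 1 bp of overlap, with a peak of every library) over the nuclei of a library or class, scaled to totals, and tested by the quasi-likelihood method of edgeR 4.0.16 with robust estimation and filterByExpr (two-sided) in R 4.3.3, with Benjamini-Hochberg adjustment over all features and a threshold of 0.05. Gate comparisons used 8 sums with library as a block (4 for Vip-only), and regions of the brain 4. Standard errors were derived from F. Intervals from counts would cover counting error only. The oligodendrocyte-marker-high class had a lineage rate at least 2 times and a GABAergic rate at most 0.5 times that of its library. DESeq2 1.42.0, TMM, the filter, the gene window, covered length, common regions, the gate and left-out libraries or nuclei were alternatives. Scripts were tested on simulated data. Python 3.11.15 and samtools read the sequences.

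The members and gene lists were chosen with earlier results of these data known. Named were all 8 members, the region over each start and that with the smallest p in the Pvalb gate, the 3 pathway genes of smallest p per direction, and the 5 genes of at least 20 CPM most like *Acan* and *Hapln1* in log2(CPM + 2). The other *Tnr* and *Acan* regions and the *Lamp5* comparison were chosen after their values were seen. Doublets were not removed, and no animal of origin is stated for a replicate.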

Additional observations from a re-analysis of the deposited data

Results flagged for a closer look

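Within-library log2 differences of the 8 genes formed 32 sets of 4 libraries, and in 4 of them 1 library lay apart from the other 3 beyond Dixon's 95% limit. Chance flags about 1 set in 20. *Vcan* was at -0.01 in cortex 1 between Pvalb-only and Lamp5-only nuclei, with the other 3 libraries between -0.34 and -0.37. *Tnr* was at 0.45 in cortex 1 in the same comparison, with the others between 0.03 and 0.10. *Vcan* was at -1.45 in cortex 2 between oligodendrocyte-marker-high and other nuclei, with the others between 0.28 and 0.52. *Hapln4* was at -0.05 in cortex 2 in the Pvalb gate, with the others between 0.16 and 0.19. Cortex 1 is the deepest library and cortex 2 the shallowest, and the part of depth in these values was not tested.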

How the results depend on the processing

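Genes called between hippocampus and cortex numbered 20, and 1 with TMM, 153 with DESeq2, 2 with common regions only, 6 with peaks near the start, 1 with covered length as an offset, 7 without oligodendrocyte-marker-high nuclei and 6 to 725 with 1 library left out (members 0 to 1), the most without cortex 1. Common regions called numbered 0, and 352 with DESeq2, 560 among those at least 50% covered and 0 to 1262 with 1 library left out, the most without cortex 1. Within Pvalb-gated nuclei 9 genes were called, and 1 with TMM, 93 with DESeq2, 33 with no filter, 2 with common regions and 4 to 554 with 1 library left out (members 0 to 1), the most without cortex 1. With DESeq2 scaling the median of all genes there moved from -0.10 to 0.01. Same-numbered replicates did not deviate together (correlations of 0.0559, -0.0621 and 0.0476 for genes, common regions and Pvalb-gated genes), and a replicate block left 0 calls in each of these 3 comparisons.

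In the Pvalb gate 2572 genes became 1673 with DESeq2, 785 with the thinned gate and 1348 to 2489 with 1 library left out, the fewest without cortex 1. The 11123 common regions became 3754 with the thinned gate (6 of 17 member regions) and 6470 to 10420 with 1 library left out, the fewest without cortex 1. The interaction's 48 genes became 13 with DESeq2 (12 higher, 1 lower), 10 with the thinned gate and 6 to 285 with 1 library left out (members 0 to 1), the most without cortex 2. Against Sst-only nuclei 1181 genes became 624 with DESeq2, 446 with the thinned gate (1 member) and 417 to 1018 with 1 library left out (members 1 to 3), the fewest without cortex 1. Against Lamp5-only nuclei 1181 became 565, 220 and 501 to 1395 in the same order, the fewest without hippocampus 2. Against Vip-only nuclei 548 became 148 with the thinned gate and 6 with a gate of 2 cut sites, with 0 members called in both and with DESeq2, and no library could be left out. For oligodendrocyte-marker-high nuclei 843 became 59 with TMM, 6149 with DESeq2 (4 members), 4135 with stricter marker limits (3 members) and 24 to 6590 with 1 library left out (members 0 to 4), the most without cortex 2. The causes were not tested.

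Some directions turned. Between hippocampus and cortex *Vcan* turned with covered length (-0.34), *Hapln1* with peaks near the start (-0.38) and covered length (-0.37), and *Tnr* with peaks near the start (-0.12) and covered length (-0.47). The median over all genes tested was -0.54 with covered length and -0.21 with peaks near the start, against -0.10 in the main fit. With 1 library left out, *Bcan* ranged from -0.65 without cortex 2 to 0.13 without cortex 1, *Ncan* from -0.63 without cortex 1 to 0.34 without cortex 2, *Vcan* from -0.19 without cortex 2 to 1.63 without cortex 1, and *Tnr* from -0.044 without cortex 2 to 0.32 without cortex 1. In the Pvalb gate *Hapln1* ranged from -0.00013 without cortex 2 to 0.12 without hippocampus 1, and its start region was at -0.046 without cortex 2. Against Sst-only nuclei *Ncan* was at 0.013 with a gate of 2 cut sites and ranged from -0.11 without hippocampus 2 to 0.018 without cortex 2, with 0.0087 without cortex 1. *Vcan* was at -0.14 with the thinned gate and ranged from -0.021 without cortex 1 to 0.060 without cortex 2.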
